A study of Drosophila melanogaster with 14 samples.

Results

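The step from stage 4 to stage 5 of Drosophila melanogaster embryogenesis was described across all mature miRNA arms, the 5p or 3p strands that are cut from a hairpin precursor. It rests on 4 of the 14 small RNA libraries of the series, 2 of whole embryos labelled stage 4 at 645 min and 2 labelled stage 5 at 930 min. These libraries were chosen by their stage labels alone. The other stages are labelled 1 to 3 (160, 300 and 530 min), 6 (1160 min) and 7 (1300 min), and the 285 min between stages 4 and 5 are the longest interval of the course. No strain, sex, treatment or number of embryos per library is given in the sources used here, nor the point from which the minutes were counted. Each library is tied by its label to a sample of an earlier mRNA time course. Organ formation is a working name for this period and is not in the labels, and no organ was separated.

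An animal miRNA binds mRNAs through a short stretch near its 5′ end, lowering their stability and translation. In the fly embryo, zygotic miRNAs of the miR-309 cluster appear when the zygotic genome is switched on and help to clear maternal mRNA. Later in embryogenesis miRNAs of differentiating tissues accumulate, such as miR-1 and miR-133 in muscle, miR-124 in neurons and miR-8 in epithelia. In libraries of whole embryos, fewer cells of a type and less RNA per cell cannot be told apart.

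The table lists 466 arms, of which 251 had a count in any library and 85 were abundant enough to test. In the 4 libraries of the step, total counts were 33956 and 66072 in stage 4 and 32538 and 31330 in stage 5. The 85 tested arms held 99.5% to 99.6% of them. One count in these libraries equals 11.8 to 25.6 CPM on the TMM scale, where CPM are counts scaled to library size and TMM factors then balance the libraries. The 2 libraries of stage 4 differed from each other more than the 2 of stage 5. Over the 85 arms Spearman's rho between the stage 4 libraries was 0.886, against 0.944 between the stage 5 libraries. Replicate 2 of stage 4 had a mean rho of 0.866 with the stage 5 libraries and replicate 1 had 0.722, whereas with the stage 3 libraries they had 0.759 and 0.855. Replicates are named in accession order. The labels do not say whether they came from separate collections, so the spread that the p-values rest on may be technical.

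The shares of the leading arms differed between the stages. The miR-309 cluster member miR-286-3p took 37.7% and 30.3% of counts in the stage 4 libraries and 16.9% and 20.2% in the stage 5 libraries. It stayed the top arm of each of the 4 libraries. bantam-3p, a growth-promoting miRNA that represses the cell death gene hid, took 6.01% and 7.95% in stage 4 and 15.8% and 14.8% in stage 5. The share of bantam-3p thus came close to that of miR-286-3p in stage 5, and for neither arm did the stages overlap. On the TMM scale the stages did not overlap in 58 of all 85 tested arms (68.2%). miR-8-3p, which limits Atrophin and Wingless signalling, took 3.98% and 8.81% in stage 4 and 13.2% and 10.8% in stage 5. The share of miR-263a-5p, which protects sensory bristle cells from death, went from 6.98% and 7.32% to 10.1% and 10.1%. miR-10-5p, encoded in the Antennapedia Hox complex, had 8.42% and 8.77% in stage 4 and 10.7% and 8.76% in stage 5, so that the stages overlapped. These arms with miR-184-3p (3.43% and 4.91%, then 4.29% and 6.37%) made up 66.5% to 71.0% of each library. Shares sum to a whole, so every share moves when miR-286-3p falls. In the test of the step given below, only miR-286-3p of these arms passed, and not under every scaling. On the TMM scale miR-263a-5p changed by a log2 fold change of 0.22 (edgeR adjusted p = 0.604) and miR-184-3p by 0.08 (edgeR adjusted p = 0.885).

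**Figure D1:**
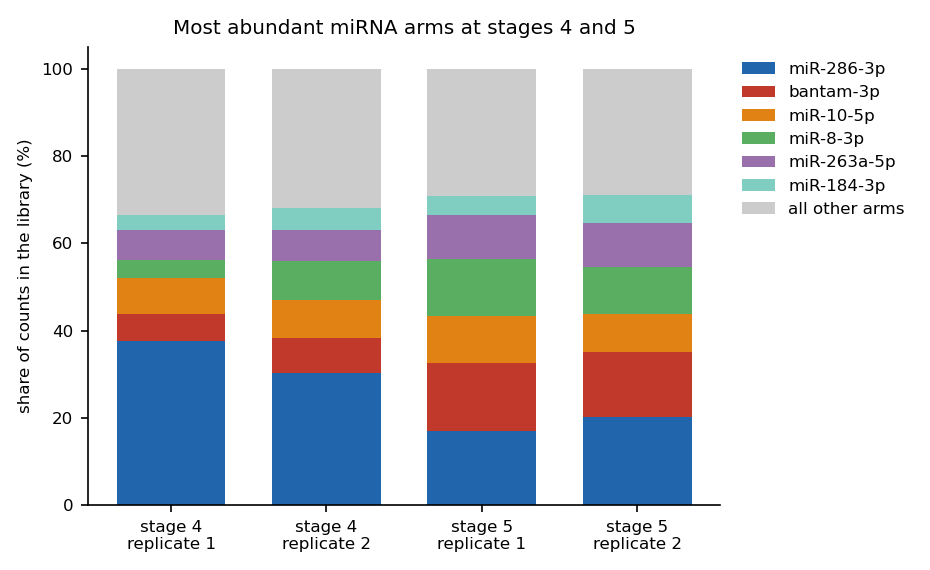
Stacked bars give the share of counts (y axis, %) of the 6 most abundant arms in each library of stages 4 and 5 (x axis), with all other arms in grey. miR-286-3p shrinks from 37.7% and 30.3% to 16.9% and 20.2% while bantam-3p grows from 6.01% and 7.95% to 15.8% and 14.8%.

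Of the 85 tested arms, 12 differed between stages 5 and 4, which is 14.1% of those tested (edgeR quasi-likelihood test, Benjamini-Hochberg adjusted p below 0.05). The 5 higher arms (5.88%) were miR-284-5p, miR-957-3p, miR-927-5p, miR-277-3p and miR-133-3p. The 7 lower arms (8.24%) were miR-275-3p, miR-311-3p, miR-312-3p, miR-92a-3p, miR-92b-3p, miR-6-3p and miR-286-3p. In all 12 the 2 stages did not overlap, as in 58 of all 85 arms (68.2%). At an unadjusted p below 0.05 there were 11 higher and 15 lower arms. With DESeq2 size factors or library size alone the split was 7 higher and 6 lower, where bantam-3p and miR-993-3p passed and miR-286-3p did not. The median log2 fold change over all arms was 0.05, against 0.30 under either scaling. The counts rested on few libraries. Leaving out stage 4 replicate 1 gave 1 higher and 1 lower arm, and leaving out its replicate 2 gave 5 and 7. For stage 5, removal of replicate 1 gave 0 higher and 1 lower, and removal of replicate 2 gave 4 and 4.

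To ask which rises went on and which early arms were lost, all arms were sorted by libraries of neither stage, namely the 4 of stages 6 and 7 against the 6 of stages 1 to 3. Of the 85 arms 69 passed (81.2%), 43 rising (50.6%) and 26 early (30.6%), which left 16 level arms. Within the rising class 38 of 43 had a higher fitted level in stage 5 than in stage 4, with a median log2 fold change of 0.79. Within the early class 25 of 26 had a lower level, with a median of -1.20. Of the level arms 11 of 16 were lower, with a median of -0.57, and 0 passed in either direction. Over all 85 arms 44 were higher and the median was 0.05. All 5 arms that rose at the step belonged to the rising class and all 7 that fell to the early class. Across the 85 arms the step and the overall course had a Pearson's r of 0.863 and a Spearman's rho of 0.857. The arms share the libraries of each axis and the scaling, and these values are a description. Without 1 library of stage 4 or 5, the rising arms with a higher level numbered 34 to 37 of 43 and the early arms with a lower level 25 or 26 of 26. The rising median was lowest, 0.42, when stage 5 replicate 1 was left out and highest, 1.28, when stage 4 replicate 2 was. The early median lay between -1.42 and -1.12. The stage 4 libraries themselves differed along the same course. In replicate 2, 31 of 43 rising arms were above their level in replicate 1 and 20 of 26 early arms were below it. The stage 5 pair was uneven as well, with replicate 2 above replicate 1 in 10 of 43 rising and 10 of 26 early arms. The part of these differences in the step was not tested.

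**Figure D2:**
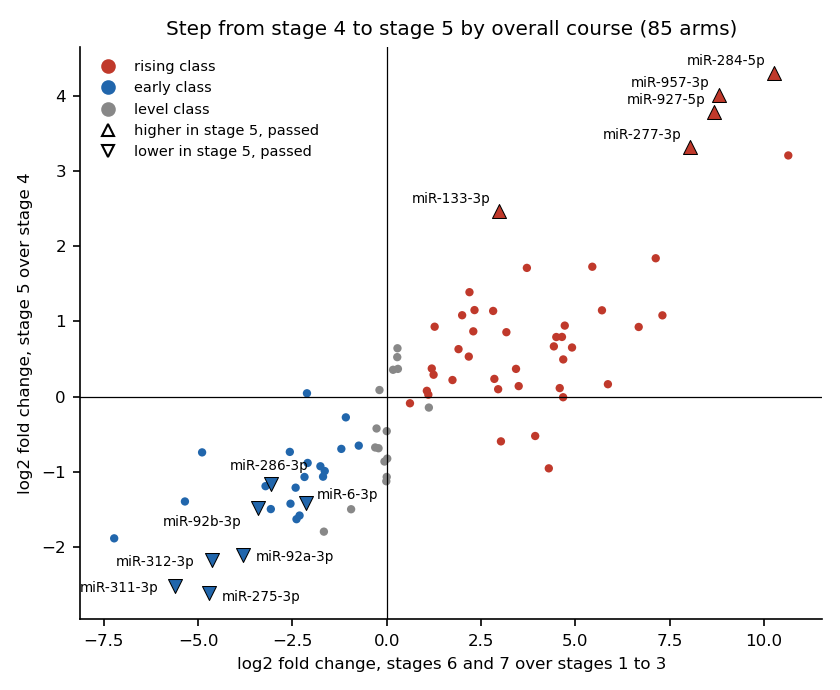
Each point is 1 of the 85 tested arms, placed by its log2 fold change of stages 6 and 7 over stages 1 to 3 (x axis) and of stage 5 over stage 4 (y axis), which use different libraries. Colours give the class, triangles the 12 arms that passed at the step. Of the rising arms 38 of 43 lie above 0 on the y axis, and of the early arms 25 of 26 lie below it.

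Of the 5 arms that rose at the step, 4 had at most 1 count in the 6 libraries of stages 1 to 3 together. miR-284-5p lies on chromosome 3R (dm6 positions 12551515 to 12551614, minus strand) within a 3′ UTR exon of Octbeta2R, a receptor for octopamine, and is known to act on glutamate receptors at the fly neuromuscular junction. It had 0 and 7 counts in stage 4 and 59 and 41 in stage 5. The pooled ratio on the TMM scale was 18.8, with an exact 95% counting interval of 8.81 to 48.0 (fitted log2 fold change 4.30 ± 1.12, SE, edgeR adjusted p = 0.0138). miR-957-3p, from a hairpin on chromosome 3L (22518196 to 22518291, minus strand) that no protein-coding gene of its strand spans, had 0 and 1 counts in stage 4 and 6 and 10 in stage 5. Its pooled ratio was 21.1 with an interval of 3.28 to 885 (log2 4.01 ± 1.15, edgeR adjusted p = 0.0231). Neither arm had a count in stages 1 to 3, and in each both stage 5 libraries lay above both stage 4 libraries. These intervals cover counting error only, and not PCR duplication.

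miR-927-5p, whose hairpin sits in a mmd intron (chromosome X, 15965947 to 15966038, minus strand), had 3 and 1 counts in stage 4 and 26 and 23 in stage 5. The fitted change was 3.78 ± 0.904 on the log2 scale (edgeR adjusted p = 0.00988). Its partner arm miR-927-3p had 3 and 8 counts and then 16 and 14, a change of 1.84 ± 0.803 that did not pass (edgeR adjusted p = 0.132). In stage 5 the 5p arm was the more abundant of the hairpin in both libraries, and in stage 4 in neither. The difference between the arms was not tested.

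miR-277-3p regulates the breakdown of branched-chain amino acids in adult flies. It had 1 and 20 counts in stage 4 and 78 and 62 in stage 5, a change of 3.32 ± 0.745 (edgeR adjusted p = 0.0058). Its level in stage 5 was 93.5% of the mean of stages 6 and 7, against 8.15% in stage 4.

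miR-133-3p, a muscle miRNA, had counts in every stage. It had 132 and 120 TMM CPM in stage 3, 128 and 130 in stage 4 and 531 and 921 in stage 5. The change at the step was 2.47 ± 0.653 (edgeR adjusted p = 0.0133), against 0.03 ± 0.790 from stage 3 to stage 4. The test of the difference between these 2 steps did not pass (2.44 ± 1.27, edgeR adjusted p = 0.389). miR-1-3p, the other muscle arm, had 128 and 212 TMM CPM in stage 4 and 398 and 246 in stage 5, a change of 0.86 ± 0.755 that did not pass (edgeR adjusted p = 0.411).

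No rise passed in all 4 of the fits that left out a library of the step. Without stage 5 replicate 1 each had an edgeR adjusted p of 0.0577. Without stage 4 replicate 1 only miR-927-5p passed, at a log2 fold change of 5.22. In that fit the change was 2.71 for miR-277-3p and 3.71 for miR-284-5p. Without stage 4 replicate 2 miR-277-3p (5.71) and miR-284-5p (8.47) passed, while miR-927-5p (2.72), miR-957-3p (5.83) and miR-133-3p (2.48) did not. Without stage 5 replicate 2 miR-133-3p (2.02) and miR-957-3p (3.66) did not pass. DESeq2 did not call miR-284-5p (4.80, adjusted p = 0.152). For miR-284-5p, miR-957-3p, miR-927-5p and miR-277-3p the size of the rise therefore depended on which stage 4 library was kept, and the direction did not.

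Other rising arms had higher values without passing. miR-956-3p had 0 and 51 counts in stage 4 and 234 and 49 in stage 5. On the TMM scale the stages did not overlap (0 and 600.5 against 5173 and 1003 CPM), and the change was 3.21 ± 1.10 (edgeR adjusted p = 0.0568). It passed without the filter, without stage 4 replicate 2 and without stage 5 replicate 2. bantam-3p went from 52238 and 61873 TMM CPM to 113489 and 94941, a change of 0.87 ± 0.324 (edgeR adjusted p = 0.0776). It passed with DESeq2 size factors in edgeR (1.14) and with library size only (1.13). miR-993-3p, from the Antennapedia complex, had 205 and 306 TMM CPM in stage 4 and 884 and 839 in stage 5 (1.71 ± 0.649, edgeR adjusted p = 0.0807). This arm passed with DESeq2 size factors in edgeR, with library size only and with DESeq2, but not without the filter.

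Measured against their late level, the rising arms covered much of their remaining distance at the step. The median of the 43 arms was 11.5% of their own mean of stages 6 and 7 in stage 3, 51.9% in stage 4 and 78.8% in stage 5. Arms over 50% of that mean numbered 6, 22 and 35. The late arms miR-957-3p, miR-284-5p, miR-956-3p and miR-927-5p had reached 13.2%, 30.5%, 34.0% and 44.5% in stage 5. At the other end miR-14-5p, whose hairpin also gives the survival and fat metabolism regulator miR-14-3p, stood at 141% in stage 4 and 247% in stage 5. The class was defined with stages 6 and 7, so that a level below 100% in earlier stages is partly given by the choice.

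Of the 26 early arms 7 fell at the step. miR-311-3p, a member of the miR-310 cluster, had 3249 and 1954 TMM CPM in stage 4 and 597 and 307 in stage 5. The change was -2.51 ± 0.460 (edgeR adjusted p = 0.00239). Of the 12 arms, this was the one that passed without each of the 4 libraries in turn and under each other setting tried. Its cluster neighbour miR-312-3p went from 13277 and 8089 to 1923 and 2825 TMM CPM (-2.17 ± 0.478, edgeR adjusted p = 0.00493). These hairpins lie with miR-310 and miR-313 within 509 bp on chromosome 2R (20583752 to 20584260, minus strand).

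miR-275-3p fell from 3223 and 1378 TMM CPM to 332 and 409. The change was -2.61 ± 0.578 (edgeR adjusted p = 0.00493). Its hairpin shares 250 bp of chromosome 2L (7425795 to 7426044) with miR-305, whose products act in stem cells of the adult fly gut. miR-305-5p and miR-305-3p were lower by fitted log2 changes of -1.58 and -0.88, which did not pass (edgeR adjusted p = 0.157 and 0.247).

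miR-92a-3p and miR-92b-3p, which maintain neural stem cells in the fly, fell together. miR-92b-3p had 34510 and 18603 TMM CPM in stage 4 and 8754 and 10340 in stage 5 (-1.47 ± 0.321, edgeR adjusted p = 0.00493). miR-92a-3p had 1740 and 942, then 287 and 328 (-2.10 ± 0.542, edgeR adjusted p = 0.0124). Both hairpins lie in jigr1 on chromosome 3R, the first in an intron (25646506 to 25646600), the second further downstream in 3′ UTR sequence of an exon (25651398 to 25651497). They are relatives, and their sequences were not compared here. How reads matching several loci were counted is not given in the sources used here, so the split between them could not be checked.

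Among products of the miR-309 cluster, miR-286-3p fell from 327215 and 235764 TMM CPM to 121292 and 129727, a change of -1.17 ± 0.349 (edgeR adjusted p = 0.0244). miR-6-3p, which represses cell death genes in the embryo and is made from 3 hairpin copies, fell from 8851 and 7653 to 3382 and 2805 (-1.41 ± 0.393, edgeR adjusted p = 0.0162). miR-286-3p did not pass with DESeq2 size factors in edgeR (-0.85, adjusted p = 0.0538), with library size only (-0.87, adjusted p = 0.0736) or when arms had to average 50 counts or more (-1.08, adjusted p = 0.0713). It passed with DESeq2 (-0.85), without the filter (-1.03) and with stages 4 and 5 alone (-1.27). miR-6-3p did not pass without the filter (-1.28, adjusted p = 0.0878). Without stage 5 replicate 1, 6 of the 7 falls did not pass, miR-311-3p being the exception. The same 6 did not pass when stage 4 replicate 1 was left out, where miR-275-3p was -1.81 and miR-92b-3p -0.88. Without stage 5 replicate 2 miR-286-3p, miR-6-3p and miR-92a-3p did not pass. Without stage 4 replicate 2 all 7 passed.

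As a class, the 26 early arms, all abundant enough to test, were reduced at stage 5 but not gone. The median of the 26 was 33.2% of their own mean of stages 1 to 3 in stage 4, 15.0% in stage 5 and 16.95% in stages 6 and 7. Arms under 10% numbered 3, 8 and 9. The class was defined with stages 1 to 3 and stages 6 and 7. The reference mean and the low level in stages 6 and 7 are thus partly given by the choice. None of the 26 had 0 counts in stage 5. miR-3-3p, a miR-309 cluster product, had 2 and 1 counts, which was 1.13% of its early level, the lowest share of the 26, against 4.53% in stage 4. Its change of -1.88 ± 0.796 did not pass (edgeR adjusted p = 0.122). miR-313-3p had 1 count in each stage 5 library. The smallest losses were those of miR-996-5p, at 96.9% in stage 4 and 80.5% in stage 5, and miR-2b-3p, at 105% and 66.6%. miR-998-5p was the 1 early arm with a fitted level not lower in stage 5 (0.05). Arms too rare to test were not sorted into classes. Of these, miR-309-3p had 44 counts in stages 1 to 3, 1 in stage 4 and 0 in stage 5. miR-286-5p had 40, 7 and 0 in the same order, while miR-313-5p had 46, 7 and 3. Loss of such rare arms was not tested.

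**Figure D3:**
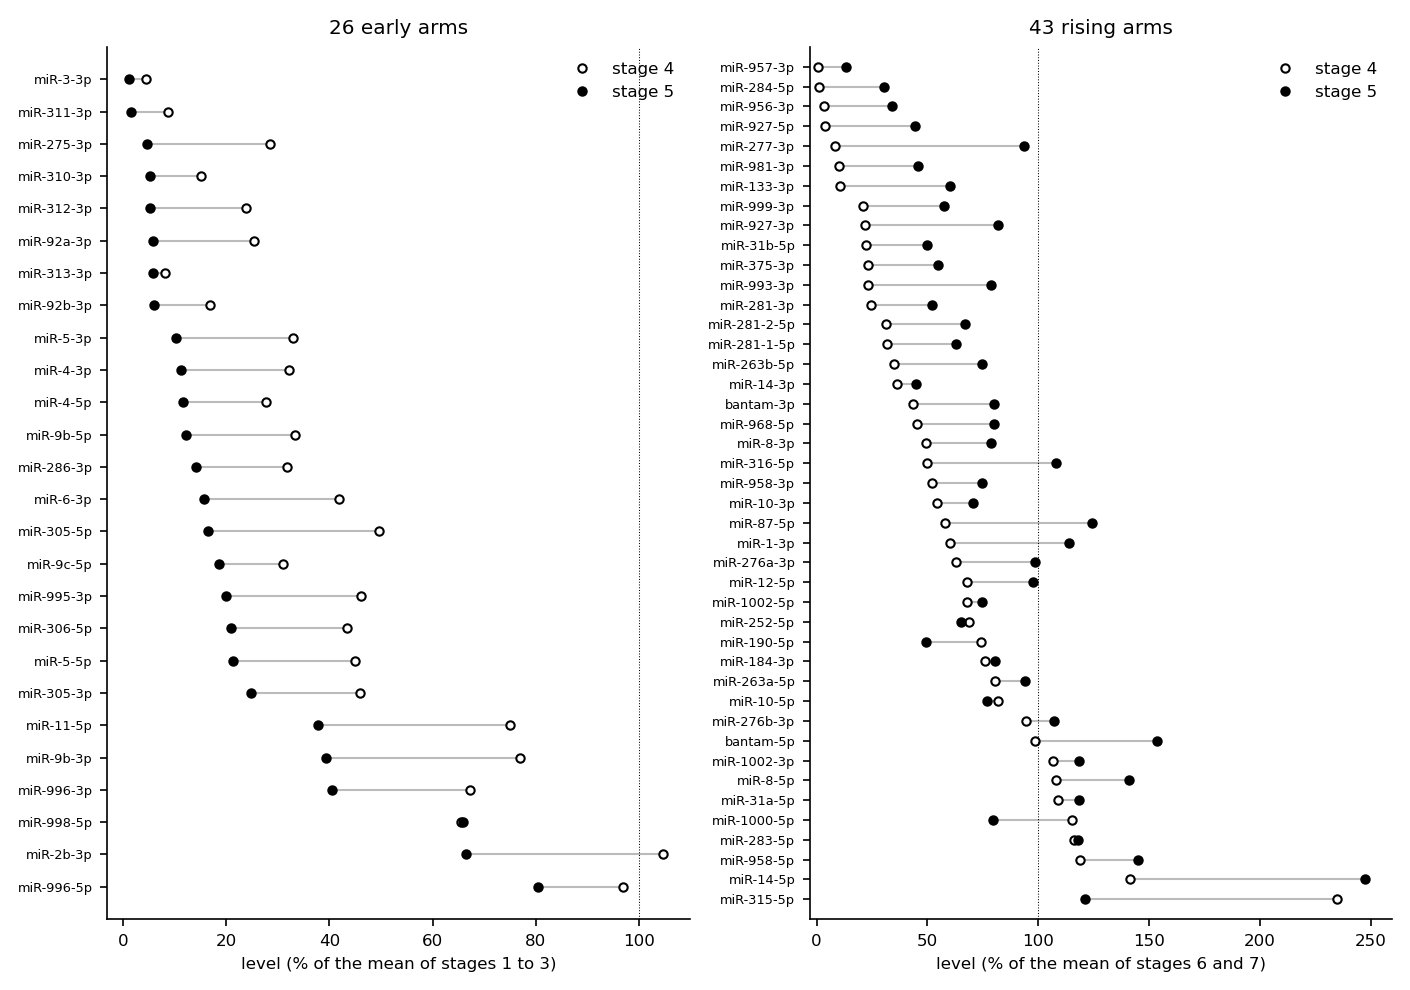
Mean level in stage 4 (open) and stage 5 (filled) of the 26 early arms, as % of their mean of stages 1 to 3 (left, x axis), and of the 43 rising arms, as % of their mean of stages 6 and 7 (right, x axis). The median moves from 33.2% to 15.0% on the left and from 51.9% to 78.8% on the right. The stages behind each reference mean also served to define the classes.

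Over the 2 steps together, stage 5 against stage 3, 50 of 85 arms passed (58.8%), of which 28 were higher (32.9%) and 22 lower (25.9%). The higher made up 56.0% of these calls, against 66.7% with DESeq2 size factors in edgeR and 73.2% with library size only. All 7 arms of the miR-309 cluster and both of the miR-92 pair were among the lower ones. Of the growth and metabolism arms 6 of 7 were among the higher.

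To ask which arms start to fall, the change from stage 4 to 5 was set against that from stage 3 to 4 in 1 contrast, the turn at stage 4. Of the 85 arms 4 passed with a negative turn (4.71%) and 0 with a positive one. At an unadjusted p below 0.05 there were 10 negative and 0 positive, and DESeq2 called 7 and 0. The negative turns numbered 8 when stage 3 replicate 2 was left out, 2 when stage 4 replicate 2 was and 1 when stage 5 replicate 2 was. The earlier step is the shorter, and both share the stage 4 libraries, so an error in stage 4 moves both. All 4 arms rose over the course. None of them passed as higher or lower in stage 5.

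miR-31a-5p, known from the embryonic gut, had 894 and 758 TMM CPM in stage 3, 18726 and 25844 in stage 4 and 23454 and 24815 in stage 5. It rose by 4.75 ± 0.479 and the next step gave 0.11 ± 0.395, a turn of -4.63 ± 0.678 (edgeR adjusted p = 0.000134). Stages 4 and 5 overlapped. This turn passed without each of the 6 libraries in turn. Stage 6 gave 19377 and 19455.

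miR-315-5p, an activator of Wingless signalling in fly cells, had 1225 and 7300 TMM CPM in stage 3, 53594 and 28175 in stage 4, 23365 and 18857 in stage 5 and 14965 and 16806 in stage 6. Stages 4 and 5 did not overlap. The change at the step, -0.95 ± 0.594, did not pass (edgeR adjusted p = 0.281), and the turn of -4.22 ± 0.987 did (edgeR adjusted p = 0.0169). Without stage 4 replicate 1 it was -3.09 (edgeR adjusted p = 0.117). It did not pass without stage 5 replicate 2 either (edgeR adjusted p = 0.0778). Removal of stage 3 replicate 2 gave -6.01, of stage 3 replicate 1 -3.44 and of stage 4 replicate 2 -5.003, and these passed. miR-190-5p, from an intron of the talin gene rhea, had 2635 and 2520 in stage 4 and 1547 and 1863 in stage 5 (-0.59 ± 0.475, edgeR adjusted p = 0.384). Its turn of -3.26 ± 0.818 (edgeR adjusted p = 0.0169) did not pass without any 1 library of stages 4 and 5 (0.0778 to 0.108), and was -4.27 without stage 3 replicate 1.

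miR-8-3p was higher in stage 5, by less than before. It had 7448 and 3670 TMM CPM in stage 3, 34561 and 68537 in stage 4, 94765 and 69225 in stage 5 and 112889 and 111808 in stage 6. The step added 0.67 ± 0.369 (edgeR adjusted p = 0.235) after 3.21 ± 0.404, a turn of -2.54 ± 0.619 (edgeR adjusted p = 0.0169). The turn rested on stage 4 replicate 2, without which it was -1.39 (adjusted p = 0.436 by edgeR's test). Removal of stage 4 replicate 1 gave -3.24 and that of stage 3 replicate 1 gave -3.14. It did not pass without stage 5 replicate 2 (edgeR adjusted p = 0.0819).

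**Figure D4:**
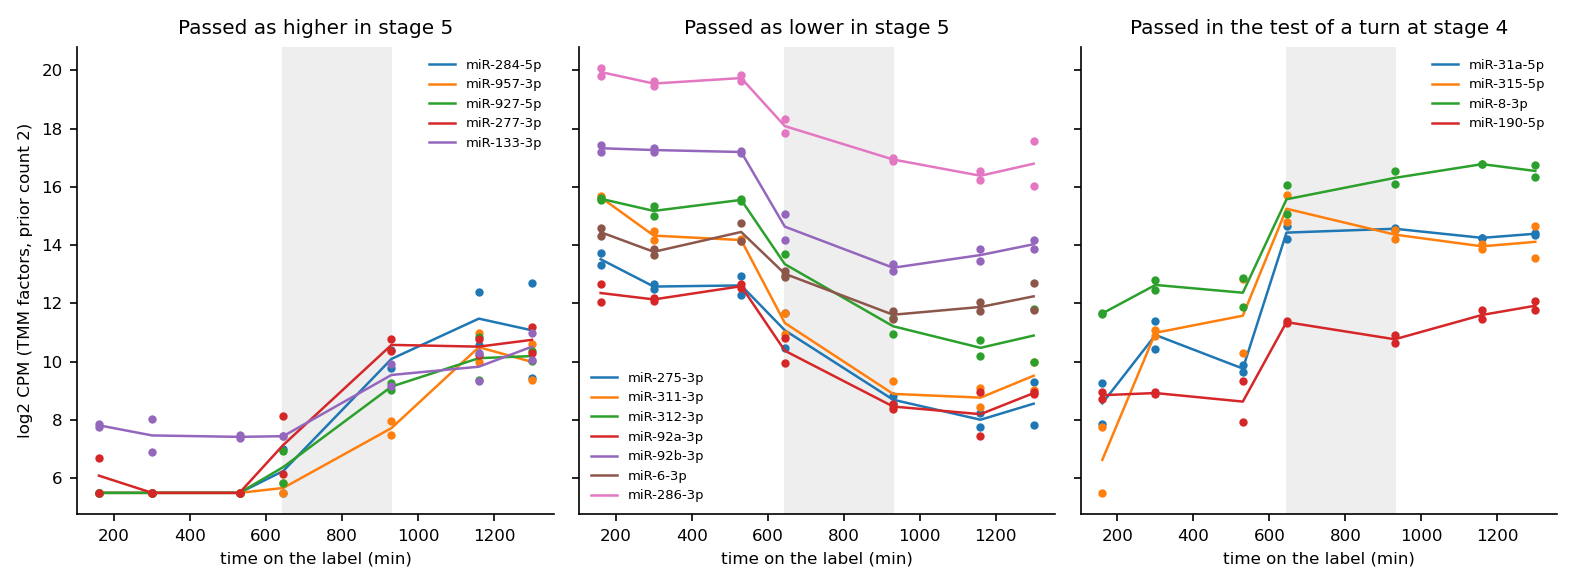
log2 CPM (y axis, TMM factors, prior count 2) of each library (points) and stage mean (lines) by time on the label in min (x axis), for arms higher in stage 5, lower in stage 5, and with a turn at stage 4. The shaded interval is the step from 645 to 930 min. The 4 arms at the right rise before the interval and change less within it.

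Grouped by cluster or by the tissue in which members are known, the lists hold every tested arm of their hairpins, 5p and 3p alike. In the miR-309 cluster 7 of 7 tested arms were lower in stage 5 and 2 passed, with a median log2 fold change of -1.41. Over all 85 arms 41 were lower (48.2%) and 44 higher (51.8%), with 8.24% called lower, 5.88% called higher and a median of 0.05, against which the counts of each list are to be read. Its share of counts was 40.9% and 33.0% in stage 4 and 18.4% and 21.9% in stage 5. In the miR-310 cluster 5 of 5 were lower and 2 passed (median -1.79), and its share went from 1.97% and 1.32% to 0.369% and 0.514%. Of the K-box family, whose main arms have seeds that match a motif of Notch target mRNAs, 8 of 8 were lower and 1 passed, miR-6-3p (median -0.76). None of the 4 tested arms of miR-306, miR-9b and miR-9c, from introns of grp, passed (median -0.99). Nor did the 4 of the cell cycle host list, which was limited to introns of E2f1 and Cdk2 (median -0.93). Of these miR-995-3p had -1.21 ± 0.414 (edgeR adjusted p = 0.0568).

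Lists of differentiated tissues did not move as 1 group. Both muscle arms were higher and miR-133-3p passed, and the share of the list was 0.0294% and 0.0454% in stage 4 and 0.144% and 0.198% in stage 5. Of 4 tested nervous system arms 3 were lower and 0 passed (median -0.74). The list goes by hairpin, and which arm of each is the active strand was not examined here. Among these miR-124-5p had 1535 and 1695 TMM CPM in stage 4 and 951 and 532 in stage 5 (-1.12 ± 0.651, edgeR adjusted p = 0.247). The other arm of its hairpin, miR-124-3p, was too rare to test, with 7 and 11 counts in stage 4 and 4 and 5 in stage 5. Its pooled ratio of stage 5 to stage 4 was 0.659, with an exact 95% counting interval of 0.261 to 1.55. The 10 epithelial and gut arms held 7 higher and 3 lower, and the 1 that passed was a fall, miR-275-3p (median 0.52). The 3 lower were all from the neighbours miR-275 and miR-305, named above for the adult gut. The 7 higher were arms of miR-8, miR-31a, miR-31b and miR-281. All 7 growth and metabolism arms were higher and 1 passed, miR-277-3p (median 0.65). Their share was 7.80% and 10.6% in stage 4 and 20.04% and 19.0% in stage 5, mostly bantam-3p. No arm passed among 7 of sensory organs (median -0.68), 4 of the Hox clusters (0.14) or 2 of the miR-12 cluster (0.28). The let-7 complex, which acts at metamorphosis, had 6 counts in stage 4 and 10 in stage 5 and no tested arm.

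**Figure D5:**
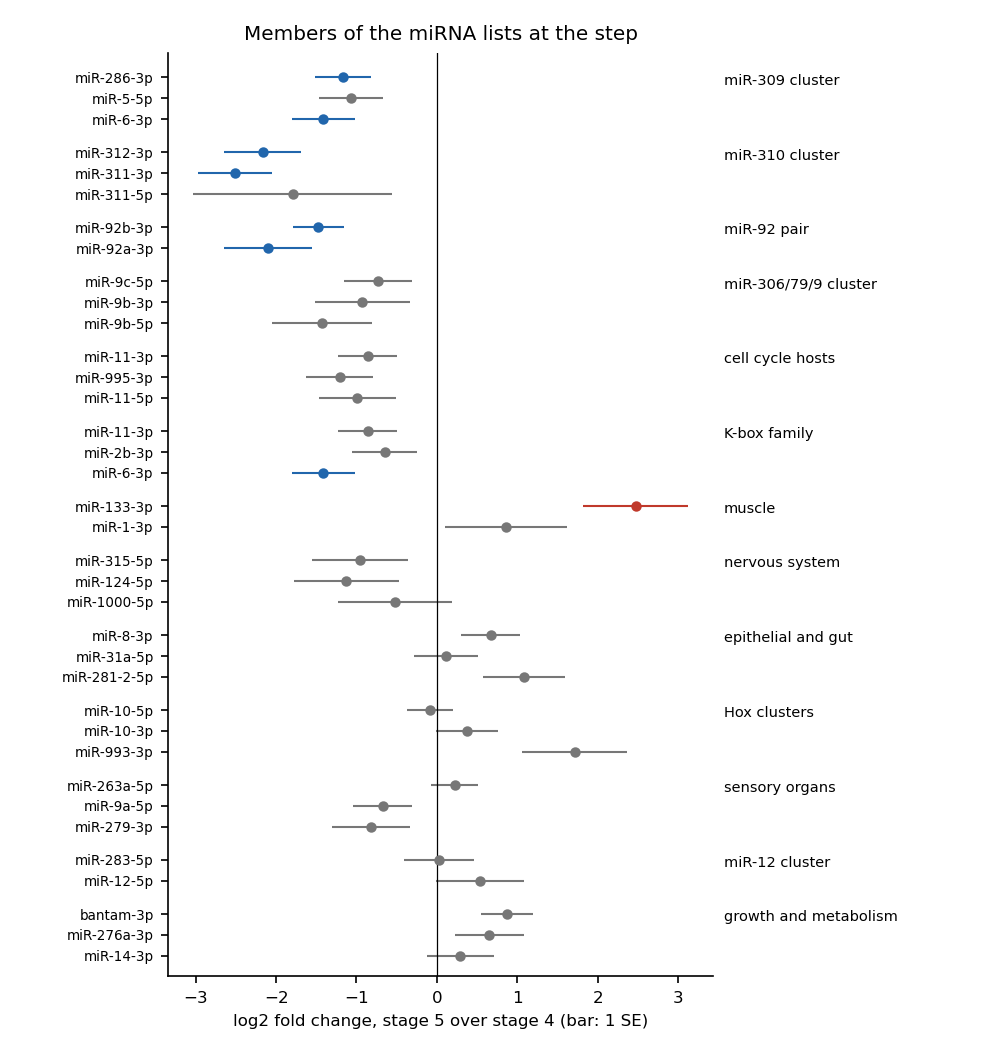
log2 fold change of stage 5 over stage 4 (x axis, bar 1 SE) of up to 3 tested arms per list with the highest mean CPM. Blue marks arms that passed as lower, red as higher, grey those that did not pass. miR-311-3p lies furthest left at -2.51 and miR-133-3p furthest right at 2.47.

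Of 15 hairpins with both arms tested, 13 had the same sign in both. The exceptions were miR-10 (-0.09 for 5p and 0.37 for 3p) and miR-263a (0.22 and -1.07). Arms seen in 1 of the stages alone had at most 10 counts. In stage 4 but not stage 5 a count was found for 30 arms, and in stage 5 but not stage 4 for another 30. The most abundant of the first was miR-962-5p with 2 and 8 counts, for which the exact 95% counting interval of the ratio of stage 5 to stage 4 reached up to 0.588.

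After the step little was called. Between stages 6 and 5 edgeR called 0 of 85 arms and DESeq2 0, with 4 higher and 0 lower at an unadjusted p below 0.05. The class medians were 0.39 for rising and -0.41 for early arms, against 0.79 and -1.20 from stage 4 to stage 5 and 1.92 and -1.54 from stage 3 to stage 4. Only the interval from stage 4 to stage 5 uses no library that defined the classes. The medians of the other intervals draw on stage 3 or stage 6, so they are partly given by that choice. These intervals also share libraries and differ in length, and the values are a description.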

How the data were processed

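Small RNA libraries of whole fly embryos were counted per mature miRNA arm. The deposited values are raw read counts, made with Bowtie and HTSeq on dm6 per the submitters' processing notes, which give no versions. The treatment of reads matching several loci is not given in the sources used here. Counts were fitted in R 4.3.3 with edgeR 4.0.16 (limma 3.58.1): quasi-likelihood test on all 14 libraries with TMM factors and a coefficient for each stage, leaving 7 residual degrees of freedom. The filter was filterByExpr by stage, with a minimum count of 10 and total of 15. Benjamini-Hochberg adjustment ran over 85 arms, with a threshold of 0.05. Each SE was derived from the test, as the absolute log2 fold change divided by the square root of the F statistic. It is approximate, most of all for arms with 0 counts in a library. Total counts per library were 17462 to 72507. Ratios of pooled counts have exact binomial intervals at 95%. Alternatives were DESeq2 1.42.0, other scalings and filters, the 2 stages alone, removal of miR-286-3p, and removal of each library. The code was tested on simulated data.

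Members and lists were chosen with earlier results of these data known. Named arms are those called at the step (up to 12 each way), at the turn (up to 5), the 6 most abundant, those with at least 10 counts in 1 stage and 0 in the other, up to 3 per list, and the other arm of each hairpin. The arms miR-956-3p, miR-3-3p, miR-313-3p, miR-313-5p, miR-309-3p, miR-305-5p, miR-305-3p, miR-996-5p and miR-998-5p were named after their values were seen. By name, 107 of 111 arms were placed on dm6 with Ensembl's gene annotation. Figures used matplotlib 3.10.9 and pandas 2.3.3 in Python 3.11.15.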

Additional observations from a re-analysis of the deposited data

How the results depend on the processing

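No paired analysis was possible because the labels carry no replicate numbers. At a mean count of at least 50, which leaves 39 arms, 1 arm was higher and 6 were lower in stage 5, 34 differed between stages 6 and 7 and stages 1 to 3, 2 had a turn and 26 differed between stages 5 and 3 (main 5, 7, 69, 4 and 50). DESeq2 called 9 higher and 9 lower at the step and 7 turns. Without each library in turn the higher arms numbered 0 to 5, the lower arms 1 to 7, the turns 1 to 8, the arms differing over the course 68 to 70 and those between stages 5 and 3 37 to 46. miR-10-5p, -0.09, was 0.18 with DESeq2 size factors in edgeR, with library size only and with DESeq2, 0.052 without the filter, 0.024 at a mean count of at least 50, and -0.33 to 0.12 without each library. miR-283-5p, 0.03, was -0.11 with stages 4 and 5 alone and -0.28 to 0.28 without each library. Without each library miR-184-3p ranged from -0.14 to 0.27, miR-31a-5p from -0.023 to 0.37 and miR-8-5p from -0.21 to 1.63. None of these arms passed at the step, and the cause was not tested. A stage left with a lone library took its spread from the rest of the course. Arms with under about 10 counts in a library are limited by depth.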
